A study of Homo sapiens with 24 samples.

Results

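The prostaglandin pathway genes described here are the 10 genes PTGS1, PTGS2, PTGES, PTGES2, PTGES3, PTGIS, PTGER2, PTGER4, PLA2G4A and HPGD, found by symbol among the 25702 Entrez gene identifiers of the RNA-seq count files. They were followed in IMR90 cells, human diploid fibroblasts from lung, at passage 23 to 28. All cells carried a retroviral ER:HRAS(G12V), an oncogenic HRAS fused to the oestrogen receptor that is switched on by 4-hydroxytamoxifen (4OHT). A second retrovirus was either the empty MSCV vector or MSCV miR30 shHMGA1, a short hairpin against HMGA1. Without 4OHT these cells are called growing (vector) and shHMGA1 (hairpin). After 6 days of 4OHT they are called RIS (RAS-induced senescence, vector) and RIS+shHMGA1 (hairpin). Each of the 4 groups had 6 libraries, which the labels call biological replicates, and p-values measure the spread between these libraries. A single hairpin was used, so an effect of lowering HMGA1 and any other effect of that hairpin cannot be told apart. No group received 4OHT without the HRAS fusion, so effects of RAS and of 4OHT itself cannot be told apart either.

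Prostaglandins are short-lived lipid signals made from arachidonic acid, which cytosolic phospholipase A2 (PLA2G4A) cuts from membrane phospholipids. The cyclooxygenases PTGS1, usually made at a steady level, and PTGS2, the form induced by inflammatory signals and the target of many anti-inflammatory drugs, convert it to prostaglandin H2. The synthases PTGES, PTGES2 and PTGES3 make prostaglandin E2 from it, PTGIS makes prostacyclin, the receptors PTGER2 (EP2) and PTGER4 (EP4) answer prostaglandin E2 by raising cyclic AMP, and HPGD begins its breakdown. In fibroblasts prostaglandin E2 is known for restraining matrix synthesis and proliferation, and it is among the lipids that senescent cells release.

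The count files held between 8698070 and 23103424 reads per library on genes, with a median of 10604084. A pair of libraries stood apart from their groups. As a root mean square of log2 differences across the tested genes, growing replicate 4 lay 1.32 from the other growing libraries but 0.328 from RIS+shHMGA1, and RIS replicate 2 lay 1.08 from RIS but 0.390 from growing, while the other 22 libraries lay 0.239 to 0.543 from their own group. MKI67, a proliferation marker, was 3.73 CPM (read counts scaled to a common library size, with TMM-scaled totals) in growing replicate 4 against 87.6 to 152 CPM in the other growing libraries, and IL1A, an inflammatory cytokine gene, was 542 CPM against 18.3 to 39.9 CPM. In RIS replicate 2, MKI67 was 141 CPM against 3.16 to 6.85 CPM in the rest of RIS, and IL1A was 24.9 CPM against 407 to 553 CPM. Both libraries were kept in their labelled groups, the comparisons of the prostaglandin genes are given with and without them, and what sets them apart was not tested. HMGA1 itself was 639 to 861 CPM in the 12 vector libraries, the pair included, and 54.4 to 262 CPM in the 12 hairpin libraries, so hairpin status fitted the label in all 24. The fibroblast markers COL1A1, COL1A2, COL3A1, VIM, PDGFRA and THY1 were read in all groups. Their summed level was 5017 to 39802 CPM in growing (22323 to 39802 without replicate 4), 13416 to 19529 CPM in shHMGA1, 5569 to 26535 CPM in RIS (5569 to 8964 without replicate 2) and 4224 to 5648 CPM in RIS+shHMGA1. CDH1 was at 0 in 19 of the 24 libraries, CDH5 in 12 and PECAM1 in 1. The highest level of PECAM1 was 1.27 CPM, of EPCAM 1.26 CPM and of PTPRC 0.688 CPM. The leukocyte list also held CD68, which was read in every library, so that the list summed to 40.2 to 95.9 CPM in growing, 42.5 to 81.6 in shHMGA1, 61.3 to 105 in RIS and 55.3 to 74.4 CPM in RIS+shHMGA1. Its part in the results was not tested. In bulk RNA, fewer cells of a kind and less RNA per cell cannot be told apart.

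Of the 10 genes, 8 passed the filter on low counts. HPGD had no read in any of the 24 libraries. PTGIS had 2 reads in all, 1 in a shHMGA1 library at 0.0727 CPM and 1 in a RIS library at 0.0802 CPM. The catabolic enzyme was thus not detected at this depth and the prostacyclin synthase was read only in traces, and no comparison was made for either.

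RefSeq promoter windows of 300 bases (250 before the annotated start and 50 after it, build GRCh38.p14) were matched by symbol for 9 of the 10 genes. The windows of the 6 genes that differ most between the groups below are shown, so that the induced and the repressed genes can be set side by side. They are PTGS2 (chr1:186680374-186680673, minus strand), PLA2G4A (chr1:186828699-186828998, plus strand), PTGES (chr9:129752993-129753292, minus strand), the pair of windows of PTGS1 (chr9:122370283-122370582 and chr9:122375052-122375351, plus strand), PTGER2 (chr14:52314062-52314361, plus strand) and PTGER4 (chr5:40679665-40679964, plus strand). Each runs 5′ to 3′ on the gene's strand, and capitals mark matches on either strand to the motifs searched. These were the TATA box with the letters TATAAA, its variant spelled TTTAAA, the AP-1 site TGANTCA and the cyclic AMP response element (CRE) TGACGTCA. Also among them were the CRE core CGTCA, which the full CRE contains, the C/EBP site TTNNGNAAT, the E-box CACGTG and the NF-kappaB motif GGGRNNYYCC. In these letters N is any base, R is A or G and Y is C or T. SP1 (GGGCGG) was searched too but is left in lower case.
PTGS2: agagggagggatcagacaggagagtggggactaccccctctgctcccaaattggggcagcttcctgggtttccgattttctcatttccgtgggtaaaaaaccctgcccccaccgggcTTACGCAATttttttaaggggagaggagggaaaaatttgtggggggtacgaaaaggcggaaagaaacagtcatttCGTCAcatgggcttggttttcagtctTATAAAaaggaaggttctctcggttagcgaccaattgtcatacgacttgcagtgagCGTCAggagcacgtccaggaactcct
PLA2G4A: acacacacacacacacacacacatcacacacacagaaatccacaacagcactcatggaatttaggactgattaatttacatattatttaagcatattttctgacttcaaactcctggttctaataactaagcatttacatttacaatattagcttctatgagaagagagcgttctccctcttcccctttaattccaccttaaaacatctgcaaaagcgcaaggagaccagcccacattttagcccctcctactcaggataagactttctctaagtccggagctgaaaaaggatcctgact
PTGES: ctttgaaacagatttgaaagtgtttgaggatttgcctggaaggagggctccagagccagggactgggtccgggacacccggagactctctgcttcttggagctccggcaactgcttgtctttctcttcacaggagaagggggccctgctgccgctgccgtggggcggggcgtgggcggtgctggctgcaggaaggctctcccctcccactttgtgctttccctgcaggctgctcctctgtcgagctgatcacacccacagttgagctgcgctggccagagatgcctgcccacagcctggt
PTGS1 upstream window: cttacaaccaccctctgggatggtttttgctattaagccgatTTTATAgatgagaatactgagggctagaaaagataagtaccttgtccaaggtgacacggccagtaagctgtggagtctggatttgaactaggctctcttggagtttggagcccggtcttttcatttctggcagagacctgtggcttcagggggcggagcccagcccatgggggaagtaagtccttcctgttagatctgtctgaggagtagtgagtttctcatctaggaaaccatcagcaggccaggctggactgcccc
PTGS1 downstream window: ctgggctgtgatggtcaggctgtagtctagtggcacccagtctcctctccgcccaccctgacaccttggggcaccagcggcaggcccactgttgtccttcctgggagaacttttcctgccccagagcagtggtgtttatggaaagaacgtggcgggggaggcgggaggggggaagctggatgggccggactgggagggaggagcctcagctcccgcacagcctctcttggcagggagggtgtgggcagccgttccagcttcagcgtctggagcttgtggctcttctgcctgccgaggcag
PTGER2: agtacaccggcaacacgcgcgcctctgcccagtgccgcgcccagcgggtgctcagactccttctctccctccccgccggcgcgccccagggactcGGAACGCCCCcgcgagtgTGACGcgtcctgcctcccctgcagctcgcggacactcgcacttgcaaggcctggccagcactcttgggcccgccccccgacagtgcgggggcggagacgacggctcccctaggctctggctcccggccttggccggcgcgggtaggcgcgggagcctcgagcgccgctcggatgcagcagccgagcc
PTGER4: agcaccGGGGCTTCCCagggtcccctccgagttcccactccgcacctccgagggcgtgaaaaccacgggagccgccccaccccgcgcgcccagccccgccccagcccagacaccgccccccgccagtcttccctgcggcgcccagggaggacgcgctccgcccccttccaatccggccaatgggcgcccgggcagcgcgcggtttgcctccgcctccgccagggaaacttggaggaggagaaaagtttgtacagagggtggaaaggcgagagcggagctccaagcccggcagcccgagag

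Positions are counted from the annotated start as 1, at the leftmost base of a match. PTGS2 held a TATA box at -32, a match found in 11.5% of all 35116 windows of this length. It also held the C/EBP letters TTACGCAAT at -133 (11% of windows) and the CRE core at -58 and 25 (24.6%). The window of PLA2G4A, the other strongly induced gene, held no match to any of the 9 motifs, and 39.7% of its bases were G or C, at the 11.2 percentile of all windows against a median of 58.7%. PTGES held only SP1 matches, at -89 and -78 (SP1 was found in 45% of windows). PTGER2 and PTGER4 were GC-rich, at 74.7% and 72%, and each held an NF-kappaB match (11.3% of windows), at -155 and at -244. The PTGS2 window held no match to the NF-kappaB letters. Near matches to them, such as gggactaccc in that window, were not searched, so the motif cannot be called absent there. PTGER2 also held the CRE core at -137, and the upstream PTGS1 window held a TATA box match at -208. AP-1 (7.71% of windows) and the full CRE (1.85%) were in no window of the 9 genes. E-box and TTTAAA matches, present in 7.26% and 12.2% of windows, lay outside the windows shown. These matches describe letters and carry no statement on binding.

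Levels were first set against each other per kilobase of exon, since CPM alone favours long genes. The length was that of the merged exons of all annotated transcripts of a gene. It can exceed the length of the expressed message, so the order between genes is approximate. In growing cells without replicate 4, PTGES3, which also serves as the HSP90 co-chaperone p23, was highest at a mean of 58.6 CPM per kb, followed by PTGS1 at 36.1 and PTGS2 at 18.2 CPM per kb. PTGES2 was at 5.76, PLA2G4A at 3.89, PTGER4 at 2.34, PTGER2 at 2.25 and PTGES at 0.479 CPM per kb. PTGER4 and PTGER2 did not differ beyond their spread, with SDs of 0.185 and 0.485 (n = 5). In RIS+shHMGA1 the order was led by PTGS2 at 371 CPM per kb, with PTGES3 at 78.8 and PLA2G4A at 44.1, while PTGS1 had moved to 6.99 CPM per kb. PTGES2 stood at 5.15, PTGES at 1.90, PTGER4 at 0.897 and PTGER2 at 0.593 CPM per kb. RIS without replicate 2 had the same order, from 263 CPM per kb for PTGS2 to 0.421 for PTGER2.

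**Figure D1:**
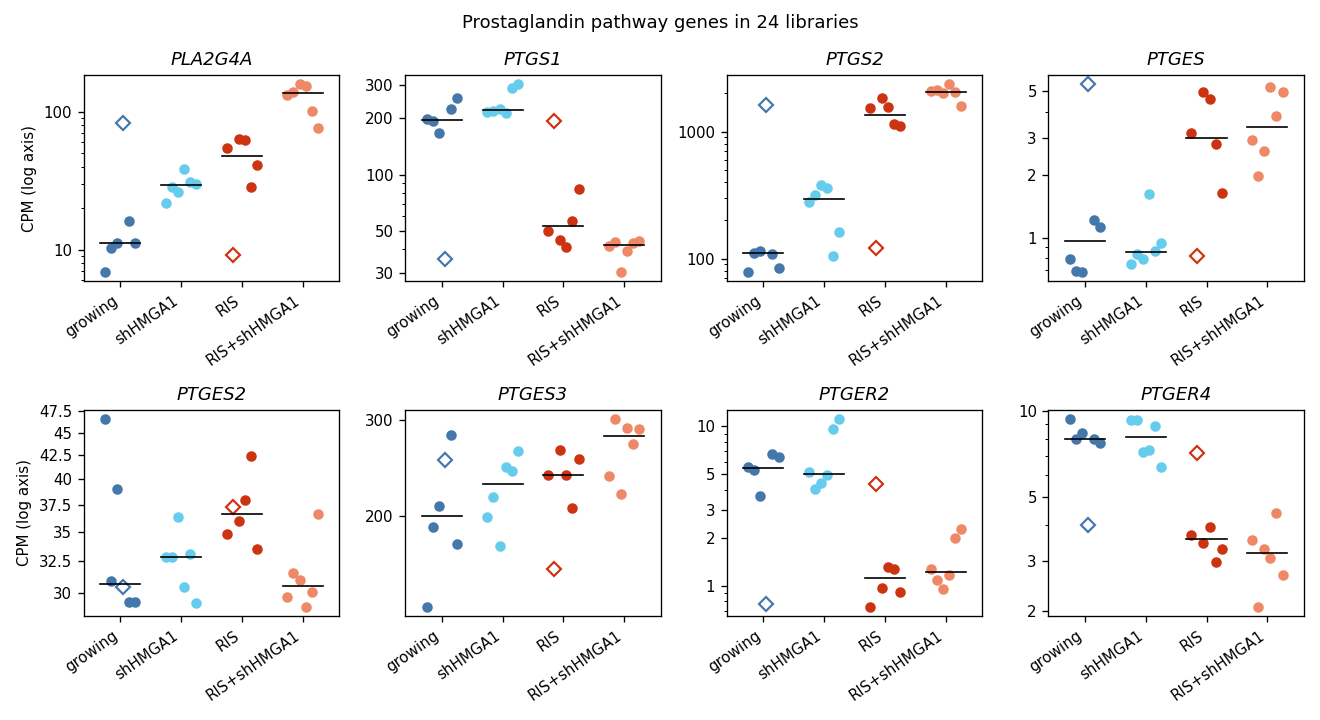
CPM (log axis) of the 8 genes that passed the filter, with 1 point per library, the median of all 6 libraries of a group as a bar, and growing replicate 4 and RIS replicate 2 as open diamonds. PTGS2, PLA2G4A and PTGES sit higher and PTGS1, PTGER2 and PTGER4 lower in RIS+shHMGA1 than in shHMGA1 with no overlap, and the open diamonds lie on the side of the opposite state for these 6 genes. The share of all genes with no overlap was not counted.

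The effect of 4OHT-induced RAS was read first between RIS+shHMGA1 and shHMGA1, which hold neither of the libraries that stand apart, although these enter the estimate of spread over all 24 libraries. In that comparison 6 of the 8 tested genes passed the thresholds (edgeR quasi-likelihood test, Benjamini-Hochberg FDR under 0.01 and absolute log2 fold change over 0.58). The phospholipase PLA2G4A, the inducible cyclooxygenase PTGS2 and the synthase PTGES rose, and the constitutive cyclooxygenase PTGS1 and the receptors PTGER2 and PTGER4 fell. Of all 13356 genes tested, 19.6% were called higher and 19.5% lower, and the median log2 fold change was 0.104 over the 8 genes and -0.02 over all genes. The groups did not overlap for any of the 6 genes. How many of all genes did not overlap was not counted, here or in the comparisons below. Without replicates 5 and 6 of every group, none of the 8 genes and no other gene was called in this comparison by edgeR, with 8380 of 13375 genes at an unadjusted p under 0.05. That fit kept the pair in its estimate of spread. With the pair left out as well, the same 6 genes were called, among 6427 of 13472 genes. A fit of only the samples compared also called these 6, among 5762 of 12936 genes.

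PLA2G4A, on chromosome 1 at 186798081 to 186958113 of GRCh37 (plus strand), was 21.7 to 38.8 CPM with a median of 29.4 in shHMGA1 and 76.4 to 159 CPM with a median of 136 in RIS+shHMGA1. It was 4.31-fold higher with 4OHT (log2 fold change 2.11, SE 0.49, adjusted p = 0.00134). The lowest RIS+shHMGA1 libraries were replicates 5 and 6, at 102 and 76.4 CPM, and both still lay above every shHMGA1 library.

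PTGS2, at 186640923 to 186650054 on the minus strand of the same chromosome, was 105 to 381 CPM (median 296) in shHMGA1 and 1587 to 2363 CPM (median 2064) in RIS+shHMGA1. The log2 fold change was 2.93 (SE 0.70, adjusted p = 0.00153), or 7.64-fold. PTGS2 and PLA2G4A are divergently transcribed and 148.0 kb apart, and the only annotated gene in that interval is the antisense RNA PACERR, which overlaps PTGS2 at its start and has no row in the counts. Whether counting used strand is not given in the sources used here, so reads from PACERR and PTGS2 may not be told apart.

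PTGS1, on chromosome 9 at 125132809 to 125157982 (plus strand), changed the other way. It was 213 to 305 CPM (median 221) in shHMGA1 and 30.3 to 44.3 CPM (median 42.4) in RIS+shHMGA1. This was 6.04-fold lower, with a log2 fold change of -2.60 (SE 0.37, adjusted p = 0.000183). The RIS+shHMGA1 libraries were tightly grouped apart from replicate 3, the lowest.

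Among the prostaglandin E2 synthases, PTGES (chromosome 9, 132500610 to 132515321, minus strand), the form usually coupled to PTGS2, was the lowest of the 8 genes per kilobase of exon in growing and shHMGA1 cells. It was 0.747 to 1.62 CPM (median 0.851) in shHMGA1 and 1.97 to 5.26 CPM (median 3.37) in RIS+shHMGA1, from 9 to 50 reads per library. The rise was 3.67-fold (log2 fold change 1.88, SE 0.48, adjusted p = 0.00237). When each replicate number was left out in turn, its adjusted p ran from 0.00017 to 0.013 and the call held in 3 of the 6 fits. PTGES2, the membrane-associated form, was 29.2 to 36.3 CPM in shHMGA1 and 29.0 to 36.6 CPM in RIS+shHMGA1 (log2 fold change -0.05, SE 0.11, adjusted p = 0.690). PTGES3 was 176 to 263 CPM and 220 to 301 CPM (log2 fold change 0.26, SE 0.15, adjusted p = 0.144). PTGES3 has processed copies elsewhere in the genome, so its counts may have lost or gained reads.

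Both receptors fell. PTGER2 (chromosome 14, 52781023 to 52795316, plus strand) was 4.04 to 11.1 CPM (median 5.05) in shHMGA1 and 0.956 to 2.28 CPM (median 1.22) in RIS+shHMGA1. This was 4.46-fold lower (log2 fold change -2.16, SE 0.44, adjusted p = 0.000548). PTGER4 (chromosome 5, 40680017 to 40693837, plus strand) was 6.40 to 9.34 CPM (median 8.11) in shHMGA1 and 2.07 to 4.41 CPM (median 3.19) in RIS+shHMGA1, 2.54-fold lower (log2 fold change -1.34, SE 0.22, adjusted p = 0.000216). Reads of PTGER4 and of TTC33, which overlaps it on the other strand, may not be told apart. Each receptor rested on few reads in RIS+shHMGA1, 8 to 23 for PTGER2 and 21 to 44 for PTGER4.

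The same comparison in vector cells, RIS against growing, holds both libraries that stand apart. With all libraries no prostaglandin gene passed the thresholds, as for all genes (0.00% called, with 4407 of the 13356 at an unadjusted p under 0.05). Of the 8 genes, 5 were at an unadjusted p under 0.05. DESeq2 called 829 genes, among them PTGS1, PTGER2 and PTGER4. In edgeR the directions were those seen in hairpin cells. The log2 fold change of PTGS2 was 1.79 (SE 0.67, adjusted p = 0.0687), that of PLA2G4A 0.92 (SE 0.48, adjusted p = 0.186) and that of PTGES 0.97 (SE 0.46, adjusted p = 0.146). PTGS1 had a value of -1.20 (SE 0.36, adjusted p = 0.0316), PTGER2 of -1.58 (SE 0.43, adjusted p = 0.0227) and PTGER4 of -0.90 (SE 0.21, adjusted p = 0.0165).

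Library by library, PTGS2 was 78.3, 111, 114, 109 and 84.4 CPM in growing replicates 1, 2, 3, 5 and 6 and 1622 CPM in replicate 4. In RIS it was 1546, 1852, 1572, 1139 and 1112 CPM in replicates 1, 3, 4, 5 and 6 and 120 CPM in replicate 2. For PTGS1 the growing libraries were 200, 193, 168, 225 and 258 CPM with 35.5 CPM in replicate 4, and the RIS libraries were 50.3, 45.2, 41.0, 56.9 and 83.7 CPM with 194 CPM in replicate 2. Each library of the pair lay within or next to the range of the opposite state, and the remaining libraries of RIS and growing did not overlap. PLA2G4A showed it as well, at 82.8 CPM in growing replicate 4 against 6.90 to 16.3 CPM and at 9.16 CPM in RIS replicate 2 against 28.4 to 63.4 CPM. So did PTGES (5.40 against 0.687 to 1.22 CPM in growing, 0.816 against 1.64 to 4.97 CPM in RIS). PTGER2 was 0.772 CPM in growing replicate 4 against 3.66 to 6.70 CPM, and 4.35 CPM in RIS replicate 2 against 0.738 to 1.31 CPM. PTGER4 was 3.99 against 7.75 to 9.40 CPM, and 7.16 against 2.96 to 3.93 CPM.

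Without growing replicate 4 and RIS replicate 2, the 6 genes called in hairpin cells were called in RIS against growing as well, where 19.2% of 13416 genes were called higher and 20.5% lower. The pair was chosen from these same libraries, for profiles close to the opposite state. All p-values and calls without it, here and below, are conditional on that choice. PTGS2 rose 14.5-fold, from 99.5 ± 16.8 to 1444 ± 315 CPM (SD, n = 5 and 5). Its log2 fold change was 3.86 (SE 0.27, adjusted p = 1.61e-11). PLA2G4A rose 4.50-fold, from 11.2 ± 3.35 to 49.9 ± 15 CPM, and PTGES 3.83-fold, from 0.905 ± 0.251 to 3.43 ± 1.36 CPM. Their adjusted p-values were 3.13e-08 and 1.08e-05. PTGS1 fell 3.77-fold (209 ± 34.4 to 55.4 ± 16.9 CPM, adjusted p = 9.63e-10). PTGER2 fell 5.28-fold (5.54 ± 1.20 to 1.04 ± 0.244 CPM, adjusted p = 6.22e-07) and PTGER4 2.41-fold (8.30 ± 0.656 to 3.46 ± 0.371 CPM, adjusted p = 2.62e-07). PTGES2 and PTGES3 were not called, with log2 fold changes of 0.07 (SE 0.12) and 0.27 (SE 0.15). Leaving out only growing replicate 4 gave the same count of 6 genes, and leaving out only RIS replicate 2 gave 3, PTGS1, PTGER2 and PTGER4. Over all genes, 3420 of 13450 and 2579 of 13435 were called in these fits, in that order. Without the pair, RIS+shHMGA1 against shHMGA1 had 6 called genes again, against 22.5% and 21.9% of all genes called higher and lower.

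**Figure D2:**
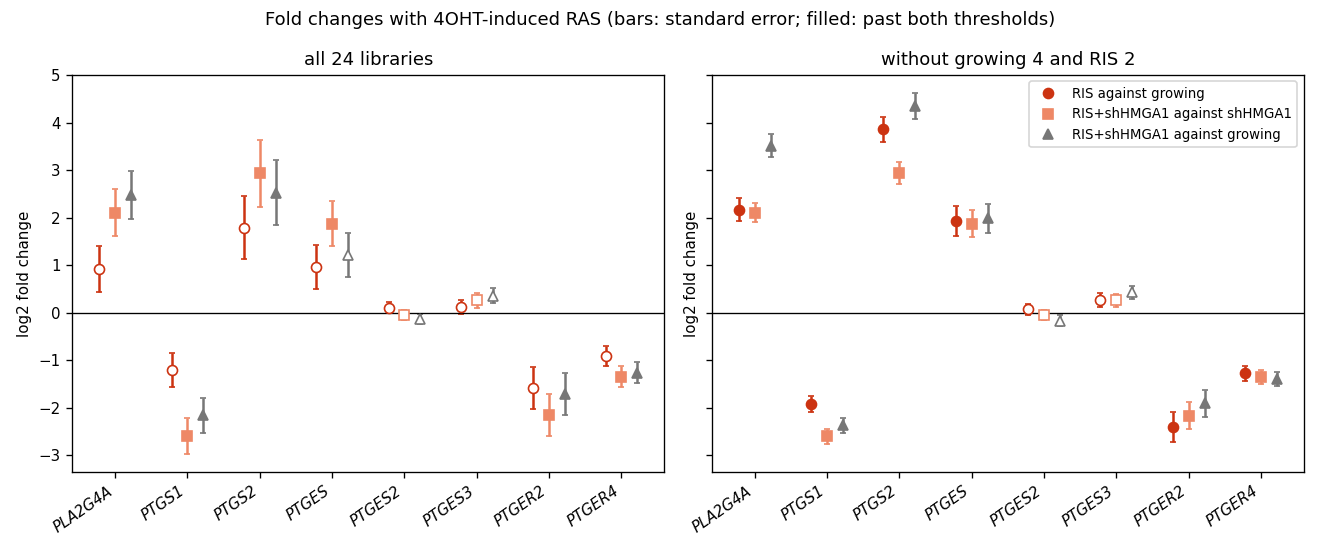
Log2 fold changes of 8 genes in RIS against growing, RIS+shHMGA1 against shHMGA1 and RIS+shHMGA1 against growing, with all 24 libraries and without growing replicate 4 and RIS replicate 2. Bars are standard errors and filled symbols passed both thresholds: in RIS against growing, none of the symbols is filled with all libraries and 6 are without the pair.

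RIS+shHMGA1 against growing shares its libraries with the comparisons above, and its values are given beside them. With all libraries 5 genes passed the thresholds, against 22.0% of all genes called higher and 23.9% called lower. PTGS2 was 5.77-fold higher (log2 fold change 2.53, SE 0.69, adjusted p = 0.00304) and PLA2G4A 5.57-fold higher (log2 fold change 2.48, SE 0.50, adjusted p = 0.000423). PTGS1 was 4.45-fold lower (adjusted p = 0.000179), PTGER2 3.26-fold lower (adjusted p = 0.00222) and PTGER4 2.40-fold lower (adjusted p = 0.000194). PTGES had a log2 fold change of 1.22 (SE 0.46, adjusted p = 0.0232). With a single replicate number left out at a time, PTGS2 stayed called in 2 of 6 fits, those without replicate 2 or 4 (adjusted p up to 0.019), and PTGER2 in 4, losing its call without replicate 1 or 3 (up to 0.015). A fit of only the samples compared called 4 genes, without PTGS2, and none was called without replicates 5 and 6. Over all genes these fits called 4695 of 12731 and 5 of 13375. Without the pair the count was 6, PTGES included, against 28.3% and 28.5% of all genes. The fold of PTGS2 then was 20.5 and that of PLA2G4A 11.4, each over 1.5 times the value with all libraries. PTGES3 then had an adjusted p of 0.00855 with a log2 fold change of 0.43 (SE 0.14), under the fold threshold.

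The balance of the cyclooxygenases was also taken per library, as the CPM of PTGS2 over that of PTGS1. It was 0.327 to 0.682 in the growing libraries other than replicate 4, where it was 45.7. In RIS it was 13.3 to 41.0 except for replicate 2, at 0.620, and in RIS+shHMGA1 it was 35.9 to 67.0. Thus PTGS1 was the more abundant message in 5 of 6 growing libraries and PTGS2 in 5 of 6 RIS and 6 of 6 RIS+shHMGA1 libraries, by CPM and per kilobase alike. The shHMGA1 libraries fell on both sides of equality, at 1.29, 1.44, 1.70 and 1.68 in replicates 1 to 4 and 0.362 and 0.533 in replicates 5 and 6. Per kilobase of exon the ratio was 0.345 to 0.719 in growing without replicate 4 and 37.8 to 70.6 in RIS+shHMGA1.

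**Figure D3:**
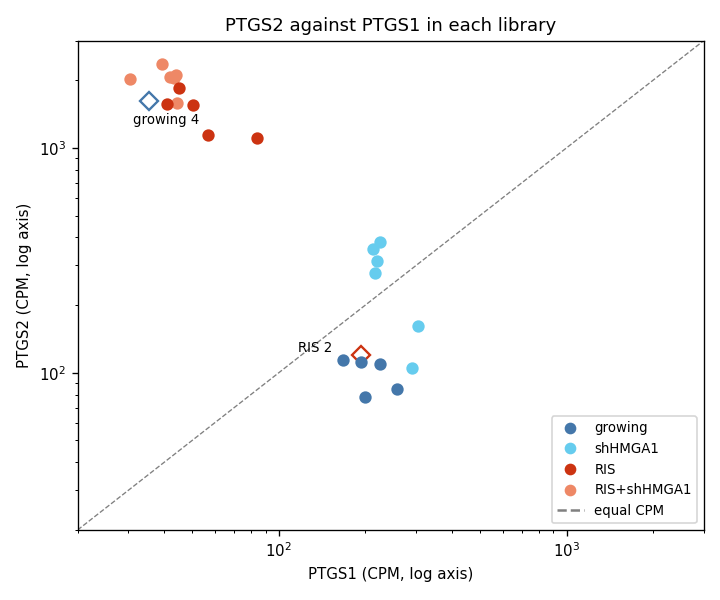
PTGS2 against PTGS1 in CPM (log axes), 1 point per library, with the dashed line at equal CPM and open diamonds for growing replicate 4 and RIS replicate 2. Apart from the diamonds, which lie on the opposite sides, the RIS and RIS+shHMGA1 libraries are at the upper left and the growing libraries below the line, and shHMGA1 libraries are divided, 4 above it and 2 below.

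What the hairpin did in growing cells was tested as shHMGA1 against growing. With all libraries no prostaglandin gene was called, against 0.135% of all genes called higher and 0.135% lower (36 genes). None of the 8 was at an unadjusted p under 0.05 in edgeR, beside 1759 of all 13356 genes. DESeq2 called 99 genes and none of the 8. The log2 fold change of PTGS2 was -0.41 (SE 0.65, adjusted p = 0.838) and that of PLA2G4A 0.37 (SE 0.48, adjusted p = 0.789). The sign for PTGS2 changed without growing replicate 4 and RIS replicate 2, to 1.42 (SE 0.24, adjusted p = 0.000606), without growing replicate 4 alone (1.42) and with the replicate number as a block (0.46). Without the pair PTGS2 was 2.67-fold and PLA2G4A 2.65-fold higher (adjusted p = 0.000415), the only called genes of the 8, against 1.21% of all genes called higher and 1.39% lower. PLA2G4A was then 29.4 ± 5.66 CPM (SD, n = 6) in shHMGA1 against 11.2 ± 3.35 CPM (n = 5) in growing, with no overlap. PTGS2 overlapped between the groups, since the lowest shHMGA1 library was 105 CPM and the highest growing library other than replicate 4 was 114 CPM. The other 6 genes had log2 fold changes between -0.11 and 0.26.

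PTGS2 differed between the shHMGA1 libraries themselves, at 278, 315, 381 and 357 CPM in replicates 1 to 4 and 105 and 162 CPM in replicates 5 and 6. HMGA1 was also lower in the latter, at 54.4 and 58.1 CPM against 98.7 to 143 CPM. Replicates 5 and 6 differed in vector RIS cells too, where HMGA1 was 786 and 704 CPM. There PTGS2 was 1139 and 1112 CPM against 1546 to 1852 CPM in replicates 1, 3 and 4. PLA2G4A was 28.4 and 41.0 CPM against 54.4 to 63.4 CPM. In growing, PTGS2 of replicates 5 and 6, at 109 and 84.4 CPM, lay within the range of replicates 1 to 3. What sets these numbers apart, HMGA1 included, was not tested. Separate fits were therefore made for these numbers, a division made from the PTGS2 values of shHMGA1, so that all values within it are a description with no test. PLA2G4A followed PTGS2 over the 24 libraries (Pearson r = 0.912). Replicates 1 to 4 without growing replicate 4 and RIS replicate 2 gave a log2 fold change of 1.73 for PTGS2 (SE 0.15) and of 1.64 for PLA2G4A (SE 0.18). Replicates 5 and 6 gave 0.44 (SE 0.24) and 1.13 (SE 0.25). The difference between the fits was not tested.

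In 4OHT-treated cells the hairpin was tested as RIS+shHMGA1 against RIS. With all libraries no prostaglandin gene was called by edgeR, against 2.55% of all genes. Of the 8, 3 were at an unadjusted p under 0.05, beside 6647 of all 13356 genes. DESeq2 called PLA2G4A, among 1573 genes in all. PLA2G4A had a log2 fold change of 1.56 (SE 0.48, adjusted p = 0.0225), although its RIS+shHMGA1 libraries, at 76.4 CPM and above, all lay over the RIS libraries, at 63.4 CPM and below. PTGS1 had a value of -0.96 (SE 0.36, adjusted p = 0.0423) and PTGS2 of 0.73 (SE 0.65, adjusted p = 0.369). Without the pair PLA2G4A was called, at 2.54-fold (log2 fold change 1.35, SE 0.22, adjusted p = 0.000409), against 12.5% of all genes. PTGS2 was 2036 ± 251 CPM (SD, n = 6) in RIS+shHMGA1 against 1444 ± 315 CPM (n = 5) in RIS, with a log2 fold change of 0.50 (SE 0.23, adjusted p = 0.0892). PTGS1 was 40.4 ± 5.27 against 55.4 ± 16.9 CPM, with a value of -0.46 (SE 0.16, adjusted p = 0.0279). PTGES2, at 31.3 ± 2.75 against 37 ± 3.5 CPM, had -0.24 (SE 0.11, adjusted p = 0.0959), and the remaining genes lay between -0.12 and 0.50 on this scale.

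PLA2G4A thus stood in 4 steps without the pair, with growing cells at a mean of 11.2 CPM, shHMGA1 cells at 29.4, RIS cells at 49.9 and RIS+shHMGA1 cells at 127 CPM. RIS and shHMGA1, the neighbours in that order, overlapped, with lowest RIS and highest shHMGA1 libraries of 28.4 and 38.8 CPM. RIS+shHMGA1 overlapped no other group except for growing replicate 4, at 82.8 CPM. By replicate number, as a description, PLA2G4A in RIS+shHMGA1 against RIS gave 1.26 (SE 0.16) in replicates 1 to 4 without the pair. It gave 1.42 (SE 0.24) in replicates 5 and 6. PTGES had -0.50 (SE 0.28) and 1.03 (SE 0.31) in these fits, neither called.

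**Figure D4:**
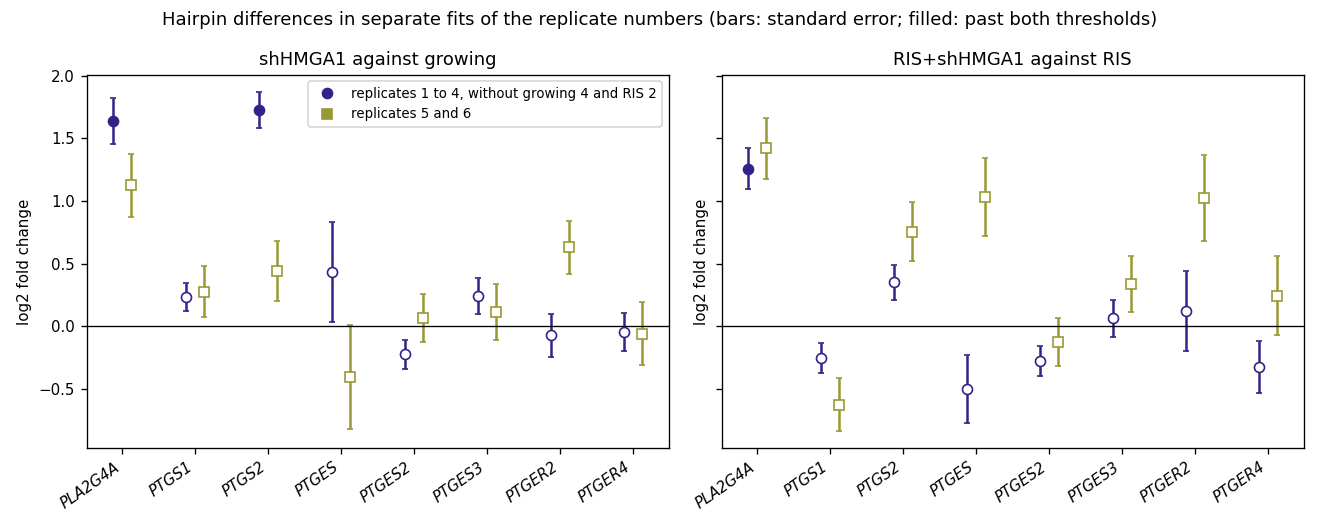
Log2 fold changes with standard errors for the hairpin without 4OHT (left) and with 4OHT (right), from separate fits of replicates 1 to 4 without growing replicate 4 and RIS replicate 2, and of replicates 5 and 6. Filled symbols passed both thresholds: PLA2G4A and PTGS2 at left and PLA2G4A at right, in replicates 1 to 4, while PLA2G4A is above 1 in all 4 fits. The division into these replicates was made from the PTGS2 values of shHMGA1, so the fills are a description with no test.

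Whether the response to RAS differed between hairpin and vector cells was tested by an interaction term. No prostaglandin gene was called, with 0.00% of all genes (1371 at an unadjusted p under 0.05, among them PTGS1, and 5 called by DESeq2, none of the 8). With all libraries the term was 1.14 for PTGS2 (SE 0.92, adjusted p = 0.505), -1.40 for PTGS1 (SE 0.50, adjusted p = 0.426) and 1.19 for PLA2G4A (SE 0.68, adjusted p = 0.426). Without the pair 0.00745% of all genes were called, which was 1 gene, and none of the 8. PTGS2 then had -0.92 (SE 0.33, adjusted p = 0.958), PTGS1 -0.68 (SE 0.22, adjusted p = 0.822) and PLA2G4A -0.06 (SE 0.30, adjusted p = 0.999). The sign for PTGS2 also changed without growing replicate 4 alone (-0.69). As a description, since the division was made from PTGS2, its term was -1.38 (SE 0.20) in replicates 1 to 4 without the pair and 0.31 (SE 0.34) in replicates 5 and 6.

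For each tested gene, the 3 genes with the most similar log2 CPM over the 24 libraries were listed by Pearson r, growing replicate 4 and RIS replicate 2 included. These libraries fall into a high and a low set for most of the genes, so r is a description only. PTGS2 was closest to the chemokine genes CXCL3 (r = 0.987), CXCL5 (0.986) and CXCL1 (0.984), and PLA2G4A to RGS17 (0.986), ZNF528 (0.984) and HCCS (0.983). PTGS1 was closest to TENT5C (0.987), DTL (0.987) and EXO1 (0.986), the last a DNA repair exonuclease. PTGES was closest to FBXO27 (0.929), PPIF (0.928) and MEDAG (0.927). PTGER2 was closest to NR2F1 (0.965), ID2 (0.961) and FRMPD4 (0.961), and PTGER4 to EFEMP1 (0.951), KIF18B (0.951) and IQGAP3 (0.950). The steady genes had their own neighbours, PPP2CA (0.971), NAP1L1 (0.939) and CCT5 (0.938) for PTGES3 and NR1H2 (0.865), SCAMP4 (0.855) and GRN (0.836) for PTGES2. The cycling markers MKI67, CCNA2 and CDK1 summed to 38.2 to 318 CPM in growing (190 to 318 without replicate 4) and 224 to 365 CPM in shHMGA1, against 19.1 to 253 CPM in RIS (19.1 to 32.3 without replicate 2) and 27.8 to 48.7 CPM in RIS+shHMGA1. They moved with PTGS1, PTGER2 and PTGER4, and their part in these results was not tested.

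Beyond these genes, 47 further genes of the pathway in 6 lists were followed, of which 34 passed the filter. In RIS+shHMGA1 against shHMGA1, 8 of the 34 were called higher and 10 lower, beside 19.6% and 19.5% of all genes, with a median log2 fold change of 0.27 against -0.02 over all genes. Without the pair 9 were called higher and 12 lower (22.5% and 21.9% of all genes), with CBR1 added above and PTGER1 and SLCO2A1 below, named after their values were seen. Of 13 genes for arachidonate release and handling 9 were tested, and 1 rose and 3 fell. Of 5 tested of 7 other synthases and reductases 2 rose and 1 fell. PTGDS, prostaglandin D2 synthase, rose 9.21-fold (0.367 ± 0.246 to 3.52 ± 1.5 CPM, SD, n = 6 and 6), from 0 to 8 reads in shHMGA1. A list of 8 genes held the other prostanoid receptors and PTGFRN, a regulator of the prostaglandin F receptor. Of these 5 were tested, and 2 fell and none rose. TBXA2R, the thromboxane receptor, fell 2.45-fold (3.88 ± 0.807 to 1.59 ± 0.444 CPM). PTGFR, the prostaglandin F receptor, fell 2.33-fold (15.6 ± 2.73 to 6.72 ± 1.84 CPM).

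Of 6 transport and breakdown genes 2 fell, among them the carbonyl reductase CBR3 by 3.04-fold (13.6 ± 1.55 to 4.45 ± 0.731 CPM), and none rose. Of 3 tested of 7 leukotriene and lipoxygenase genes 2 rose. ALOX5AP, which presents arachidonate to 5-lipoxygenase, rose 8.90-fold (0.390 ± 0.257 to 3.42 ± 0.768 CPM) and ALOX12 3.30-fold (0.481 ± 0.190 to 1.60 ± 0.639 CPM). Of 6 cyclic AMP-responsive genes 3 rose and 2 fell, in opposite directions within the NR4A family of nuclear receptors. NR4A2 fell 8.35-fold (7.03 ± 1.36 to 0.833 ± 0.422 CPM) and NR4A1 2.61-fold (12.6 ± 2.34 to 4.82 ± 0.477 CPM), while NR4A3 rose 2.71-fold (6.72 ± 0.770 to 18.3 ± 2.89 CPM). PDE4B, a phosphodiesterase that degrades cyclic AMP, rose 6.27-fold (40.9 ± 3.04 to 256 ± 28.4 CPM). Adjusted p-values of these 10 named genes ran from 8.37e-05 (CBR3) to 0.00241 (PTGFR).

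**Figure D5:**
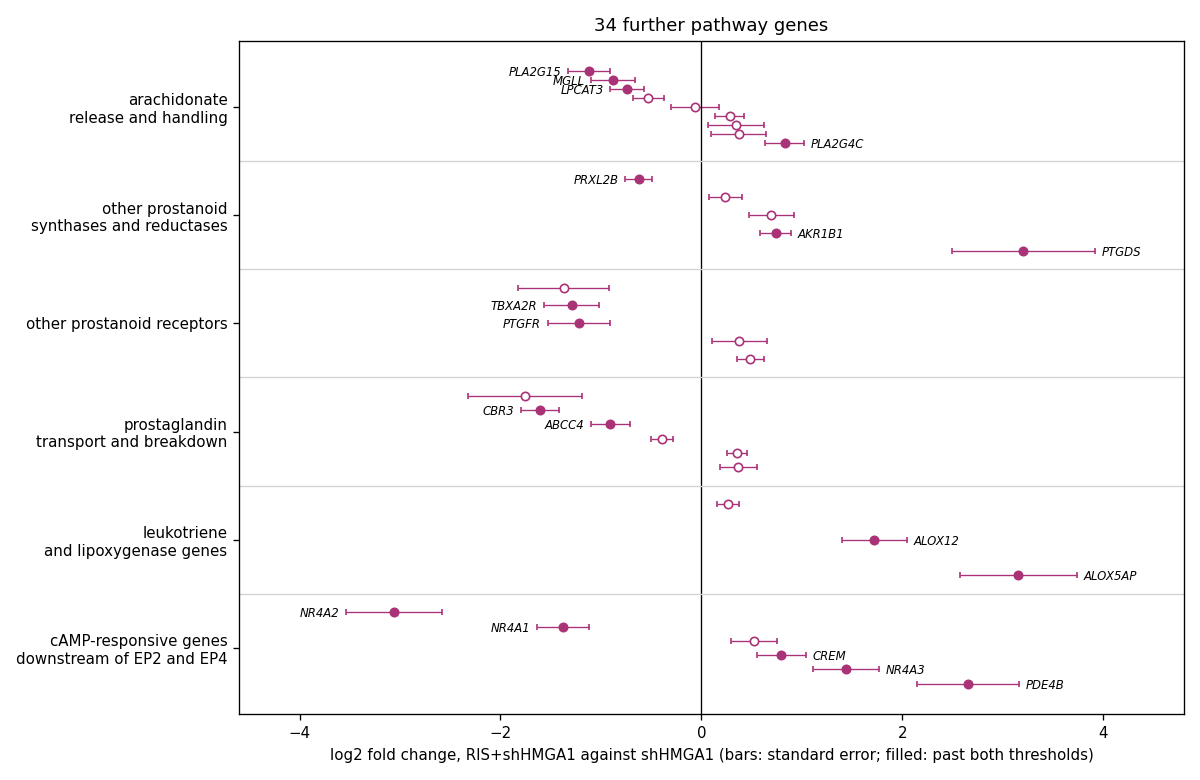
Log2 fold change in RIS+shHMGA1 against shHMGA1 (x axis) of 34 further pathway genes, by list, with standard errors. Filled and named points passed both thresholds: 8 lie to the right and 10 to the left of 0.

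In the other comparisons the lists were called as follows. In RIS against growing none was called with all libraries (0.00% of all genes), and 9 were higher and 9 lower without the pair (19.2% and 20.5%). PTGDS was then 10.9-fold, ALOX5AP 11-fold and PDE4B 6.81-fold higher, and NR4A2 was 2.88-fold lower. In RIS+shHMGA1 against growing 12 were higher and 12 lower (22.0% and 23.9% of all genes), and 13 and 12 without the pair (28.3% and 28.5%). In shHMGA1 against growing TBXAS1, thromboxane synthase, was the only call, at 2.06-fold higher (log2 fold change 1.04, SE 0.17, adjusted p = 0.00289), against 0.135% of all genes called higher, and CREM joined it without the pair, against 1.21%. In RIS+shHMGA1 against RIS, PTGR1, which reduces prostaglandin metabolites, was 1.64-fold higher and the lysosomal phospholipase PLA2G15 1.86-fold lower, beside 2.55% of all genes called, and 3 were higher and 2 lower without the pair, beside 12.5%. None was called in the interaction under either set of libraries. TBXAS1, CREM, PTGR1 and PLA2G15 are named because so few were called, after their values were seen.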

How the data were processed

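RNA-seq libraries were TruSeq stranded mRNA libraries of total RNA from IMR90 ER:HRAS(G12V) cells, 6 in each of 4 groups, and groups and replicate numbers were taken from the sample titles. The values that the authors deposited are raw read counts per Entrez gene identifier, 25702 per library, without normalisation. Per the labels and the study's methods, reads were trimmed with cutadapt 1.10.0, mapped to hg19 with STAR 2.5.0b, filtered by mapping quality and counted with Rsubread. The strand setting and the annotation used for counting are not given in the sources used here. Symbols were matched by Entrez identifier for 23696 identifiers, and merged exon lengths and positions were taken from GENCODE on GRCh37.

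The genes and the pathway lists were chosen with earlier results of these data known. Genes were filtered with filterByExpr by group (13356 kept), scaled by TMM and tested with edgeR 4.0.16 (limma 3.58.1, R 4.3.3) by the quasi-likelihood test on all 24 libraries, with group means and no replicate block, as the study's methods name none. With the study's thresholds, a gene was called where its Benjamini-Hochberg FDR, over all genes tested, was under 0.01 and its log2 fold change exceeded 0.58 in size. CPM used TMM-scaled library sizes, with a prior count of 2 before log2 was taken. Within groups, no library was a duplicate of another by its counts. The fit was also run on simulated counts, with the same dispersion for all genes and no library unlike its group. That run cannot tell how the fit behaves with the 2 libraries that stand apart.

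Named were the 10 pathway genes, at most the 10 list genes with the largest absolute log2 fold change among those called in RIS+shHMGA1 against shHMGA1, HMGA1 and the markers, and the 3 genes most similar to each. Alternatives were DESeq2 1.42.0, RLE normalisation, no filter, the replicate block, only the samples compared, each replicate number left out, replicates 5 and 6 left out, and the 2 libraries that stand apart left out. Added after seeing the data were fits without either of these 2 libraries alone and fits of replicates 5 and 6 and of replicates 1 to 4.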

Additional observations from a re-analysis of the deposited data

Results flagged for a closer look

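For each of the 8 tested genes and 4 groups, the gap of the highest or lowest library to its neighbour was divided by the range of the 6 libraries on the log2 CPM scale, and 12 of the 32 groups exceeded Dixon's 95% critical value, where chance gives about 1 in 20, or 1.6. Growing replicate 4 held 6 of these and RIS replicate 2 held 3. In growing, replicate 4 was the highest library for PTGS2 (ratio 0.875), PTGES (0.742) and PLA2G4A (0.657) and the lowest for PTGS1 (0.783), PTGER2 (0.706) and PTGER4 (0.772). In RIS, replicate 2 was the lowest for PTGS2 (0.813) and the highest for PTGER2 (0.697) and PTGER4 (0.684). The other 3 were PTGS1 in RIS+shHMGA1 replicate 3, the lowest (0.689), PTGES in shHMGA1 replicate 4, the highest (0.708), and PTGES2 in RIS+shHMGA1 replicate 6, the highest (0.631).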

How the results depend on the processing

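With RLE normalisation or no filter on low counts, all 48 log2 fold changes of the 8 genes over the 6 comparisons kept their direction and their call. The counts of called prostaglandin genes depended on the libraries. In RIS against growing the count of 0 became 3 with DESeq2, 6 without the 2 libraries that stand apart, 6 without growing replicate 4, 3 without RIS replicate 2, 5 in replicates 5 and 6 only and 6 in replicates 1 to 4 without the pair, and it was 0 to 6 when each replicate number was left out. Over all genes DESeq2 called 829 of 13356, and 5331 of 13416 were called without the pair. The counts were 3420 of 13450 without growing replicate 4 and 2579 of 13435 without RIS replicate 2. They were 2176 of 13429 in replicates 5 and 6 only and 6444 of 13472 in replicates 1 to 4 without the pair. In RIS+shHMGA1 against growing the count of 5 became 0 without replicates 5 and 6, where 5 of 13375 genes were called, and was 3 to 6 with each number left out. In shHMGA1 against growing 0 became 2 without the pair (348 of 13416 genes) and 2 in replicates 1 to 4 without the pair (964 of 13472 genes). In RIS+shHMGA1 against RIS 0 became 1 with DESeq2, 1 without the pair, 2 without growing replicate 4 and 1 in replicates 1 to 4 without the pair, and was 0 to 2 with each number left out. There DESeq2 called 1573 of all 13356 genes, and 1677 of 13416 were called without the pair. Without growing replicate 4 it was 2555 of 13450, and in replicates 1 to 4 without the pair 1404 of 13472. In RIS+shHMGA1 against shHMGA1 the count of 6 became 0 without replicates 5 and 6, where no gene at all was called. In that fit 8380 of 13375 genes were at an unadjusted p under 0.05. Neither library that stands apart is in the comparison, but both were in the shared estimate of spread. The count was 6 in replicates 1 to 4 without the pair, where 6427 of 13472 genes were called. It was also 6 with only the samples compared (5762 of 12936 genes). The cause was not tested. In the interaction 0 became 1, PTGS2, in replicates 1 to 4 without the pair. That division was made from the PTGS2 values, so the counts in its fits are a description with no test. With only the samples compared, the count in RIS+shHMGA1 against growing was 4, without PTGS2.

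Replicate numbers were not taken to pair the libraries, since in no comparison did every same-numbered pair of deviations correlate above 0.1. This rule cannot exclude a pairing, since the growing and RIS means behind the deviations include growing replicate 4 and RIS replicate 2. The correlations ran from -0.594 to 0.828 in RIS against growing, from -0.138 to 0.373 in RIS+shHMGA1 against growing, from 0.0747 to 0.481 in shHMGA1 against growing, from -0.202 to 0.530 in RIS+shHMGA1 against RIS and from -0.0233 to 0.326 in RIS+shHMGA1 against shHMGA1, and 5 of 6 were above 0.1 in each of the last 3. The replicate block moved the count in RIS+shHMGA1 against RIS from 0 to 1 (PLA2G4A, adjusted p = 0.00666) and in RIS+shHMGA1 against growing from 5 to 6, and reversed PTGS2 in shHMGA1 against growing to 0.46. Over all genes the block called 1637 of 13356 in RIS+shHMGA1 against RIS and 6456 in RIS+shHMGA1 against growing. With the block and without the pair the counts were 6 in RIS against growing, 2 in shHMGA1 against growing and 1 in RIS+shHMGA1 against RIS. Beside these stood 5246, 484 and 1938 of all 13416 genes.

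Directions that reversed belonged to values of no call or to comparisons with growing replicate 4 or RIS replicate 2. For RIS against growing, PTGES2 was -0.00 without replicates 5 and 6 and -0.10 in replicates 1 to 4 without the pair, and PTGES3 was -0.00 in replicates 5 and 6. For RIS+shHMGA1 against growing, PTGES2 was 0.23 in replicates 5 and 6. For shHMGA1 against growing, PTGS2 was 1.42 without the pair (1.28 with the replicate block), -0.72 to 1.31 with each number left out (1.31 without replicate 4), 1.42 without growing replicate 4, 0.44 in replicates 5 and 6 and 1.73 in replicates 1 to 4. PTGES was -0.78 to -0.11 with each number left out, 0.11 without the pair, 0.11 without growing replicate 4 and 0.43 in replicates 1 to 4. PTGES2 was 0.04 without replicate 1 and 0.06 in replicates 5 and 6, and PTGER2 was -0.07 in replicates 1 to 4. PTGER4 was -0.05 without the pair (-0.04 with the block), -0.04 to 0.14 with each number left out (-0.04 without replicate 4), -0.04 without growing replicate 4, -0.06 in replicates 5 and 6 and -0.05 in replicates 1 to 4. For RIS+shHMGA1 against RIS, PTGES was -0.13 without replicates 5 and 6 and -0.50 in replicates 1 to 4. PTGER2 was 0.50 without the pair (0.53 with the block), -0.42 to 0.57 with each number left out (0.57 without replicate 2), 0.49 without RIS replicate 2, 1.02 in replicates 5 and 6 and 0.12 in replicates 1 to 4, and PTGER4 was 0.24 in replicates 5 and 6. For RIS+shHMGA1 against shHMGA1, PTGES2 was 0.00 without replicate 4 and 0.17 in replicates 5 and 6. For the interaction, PTGS2 was -0.92 without the pair (-0.79 with the block), -0.52 to 1.61 with each number left out (-0.52 without replicate 4), -0.69 without growing replicate 4 and -1.38 in replicates 1 to 4. PTGES was -0.06 without the pair and -0.94 in replicates 1 to 4. PTGES3 was -0.01 without the pair (-0.03 with the block) and -0.18 in replicates 1 to 4. PTGER2 was 0.24 without the pair (0.32 with the block), -0.80 to -0.02 with each number left out, 0.05 without RIS replicate 2, 0.39 in replicates 5 and 6 and 0.19 in replicates 1 to 4. PTGER4 was 0.30 in replicates 5 and 6, and PLA2G4A was -0.06 without the pair and -0.38 in replicates 1 to 4. The cause was not tested.

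Over all genes, the number called ranged over the settings from 0 to 6444 in RIS against growing (0 with all libraries), from 5 to 964 in shHMGA1 against growing (36) and from 14 to 2555 in RIS+shHMGA1 against RIS (341), reached 8 in the interaction, and without replicates 5 and 6 fell to 5 in RIS+shHMGA1 against growing (6137). PTGES, PTGER2 and PTGER4 rest on the fewest reads, as low as 6 in a library.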
